A study of Mus musculus with 4 samples.

Results

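The cathepsins are a family of proteases, most of which work in lysosomes, and 10 of their genes were followed in whole mouse retina after the rod transcription factor Nrl was deleted in the adult. The genes Ctss, Ctsa, Ctsb, Ctsc, Ctsd, Ctsf, Ctsh, Ctsk, Ctsl and Ctsz were chosen by symbol from the 19421 genes with a named probe set. Each of them had 1 probe set on the array, so all 10 were measured and none rested on a choice between probe sets. Ctss was set against the other 9 because it was already known to be among the genes that passed the test in these data. The values of Ctss and its distance from the other cathepsins are therefore given as descriptions and not as tests.

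The knockout mice carried Nrl(f/f);Cag-CreERT(+), with floxed Nrl on both chromosomes, and the controls carried Nrl(+/f);Cag-CreERT(+), with an intact allele left. Mice of each genotype thus had the tamoxifen-dependent Cre driven by CAG, a promoter active in most cell types rather than in rods alone, and all received 4-hydroxytamoxifen into the peritoneum daily on postnatal days 42 to 44. Retinas were taken on postnatal day 63, 19 days after the last dose, and RNA from 4 retinas of 2 animals was pooled for each array. There were 2 knockout and 2 control arrays, so p-values rest on the spread between pools, which limma moderates with the spread of all genes. On the log2 scale Nrl read 8.21 and 8.13 in control and 7.57 and 7.05 in the knockout, in the direction of the labels, without passing the test over all genes (limma adjusted p = 0.289). The sources used here do not place its probes against the floxed segment, so the level is a limited check. The 8 measured rod markers had a median signal percentile of 98.9, and all 8 were lower on both knockout arrays than on both control arrays, as were 18.4% of all genes. The rod transducin gene Gnat1 fell by 3.01 (SE 0.13, limma adjusted p = 0.00586). Replicates 1 and 2 differed in Xist, transcribed from the silenced X of females, in each genotype. It read 4.09 in control and 4.07 in knockout replicate 1 but 10.47 and 10.66 in replicate 2. The spread between the pools of a genotype thus includes any shift between the replicate numbers. Differences are therefore also given within a replicate number where they matter.

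Cathepsins are made as inactive precursors, sorted to lysosomes by the mannose 6-phosphate receptors, and activated there at low pH. Most are cysteine proteases, cathepsin D is an aspartic protease and cathepsin A a serine carboxypeptidase. Cathepsins B, D, L and Z are found in nearly all cells, and in the eye the retinal pigment epithelium uses cathepsin D to break down shed outer segments. Cathepsin S stands apart in that it is made mainly by microglia, macrophages and other antigen-presenting cells, keeps its activity at neutral pH, and cleaves the invariant chain that blocks class II molecules. Cystatins are the natural inhibitors of the cysteine cathepsins.

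Promoter sequences set the gene that rose beside its chromosomal neighbour and a broadly expressed relative. In RefSeq's order of protein-coding genes, Ctsk comes directly before Ctss and Hormad1 directly after it. The RefSeq promoter table (build GRCm38.p6, 250 bases before to 50 after the gene start) held 9 windows for 8 of the 10 genes, with 2 windows for Ctsa. The windows printed here are Ctss at chr3:95526536-95526835 (plus strand), Ctsk at chr3:95498960-95499259 (plus strand) and Ctsd at chr7:142387778-142388077 (minus strand), each 5′ to 3′ on the gene's strand. Capitals mark matches on either strand to GAGGAA, the core bound by the myeloid factor PU.1, to GAAANNGAA, bound by interferon regulatory factors and written here in a form chosen after a longer form had been searched, and to CACGTG, the E-box bound by TFEB and its relatives.
Ctss: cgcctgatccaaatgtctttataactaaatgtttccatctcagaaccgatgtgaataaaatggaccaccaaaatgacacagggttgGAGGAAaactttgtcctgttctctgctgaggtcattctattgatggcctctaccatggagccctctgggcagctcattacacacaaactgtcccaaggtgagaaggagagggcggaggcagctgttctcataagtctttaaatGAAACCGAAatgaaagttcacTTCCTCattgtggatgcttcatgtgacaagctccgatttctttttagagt
Ctsk: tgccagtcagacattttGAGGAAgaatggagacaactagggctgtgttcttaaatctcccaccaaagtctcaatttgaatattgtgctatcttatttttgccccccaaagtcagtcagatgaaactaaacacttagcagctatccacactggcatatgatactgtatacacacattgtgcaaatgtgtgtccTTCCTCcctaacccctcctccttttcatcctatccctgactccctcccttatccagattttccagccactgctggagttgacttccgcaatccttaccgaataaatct
Ctsd: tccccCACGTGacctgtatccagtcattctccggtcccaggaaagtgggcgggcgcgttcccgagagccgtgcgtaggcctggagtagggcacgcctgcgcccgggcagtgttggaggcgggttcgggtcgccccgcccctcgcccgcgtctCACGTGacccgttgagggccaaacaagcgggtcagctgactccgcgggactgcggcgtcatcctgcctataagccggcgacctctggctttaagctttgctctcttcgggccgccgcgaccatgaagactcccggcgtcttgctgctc
The Ctss window held GAAACCGAA from 21 to 13 bases before the start, and TTCCTC, the reverse complement of GAGGAA, beginning at the start itself. The latter lies within ACTTCCTC, a match to the longer form GAGGAAGT on the opposite strand. A second GAGGAA lay 164 to 159 bases before the start. GAAANNGAA occurred in the Ctss window and in no other of the 9, against 8.56% of all 32851 promoter windows. GAGGAAGT, which contains GAGGAA, occurred in the windows of Ctss and Ctsc, 2 of 9, against 3.20% of all windows. The shorter GAGGAA occurred in 3 of 9, those of Ctss, Ctsc and Ctsk, against 28.3% of all. CACGTG was matched in 4 of 9 windows, those of Ctsd, Ctsf, Ctsl and 1 of the 2 of Ctsa, against 7.15% of all windows, and not in that of Ctss. TTCNNNGAA, the STAT element, was matched in 1 window, that of Ctsc (8.30% of all), and TGANTCA, the AP-1 element, in none (7.81% of all). GGGCGG, the GC box, was matched in 5 of 9 (35.7% of all). Of their 300 bases, 132 were G or C in Ctss, 131 in Ctsk and 202 in Ctsd. These are matches of letters and show no binding.

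Among the cysteine endopeptidases, Ctss was the gene with the large difference. Its log2 level was 7.43 and 7.19 on control replicates 1 and 2 and 8.99 and 8.69 on knockout replicates 1 and 2. Both knockout pools lay well above both control pools, and replicate 2 was the lower array in each genotype. The knockout mean was 8.84 ± 0.22 (SD, n = 2) and the control mean 7.31 ± 0.17 (SD, n = 2), a log2 difference of 1.53 (SE 0.15, 95% interval 1.17 to 1.89) or 2.89-fold. It was 1.56 between the replicate 1 pools and 1.50 between the replicate 2 pools. Ctss ranked 13th of 19421 genes by the size of its rise and 22nd by p. Its adjusted p of 0.0327 (limma, Benjamini-Hochberg over all genes) is the value by which it was chosen. That p was 0.135 without knockout replicate 1, 0.0878 without knockout replicate 2, 0.297 without control replicate 1 and 0.378 without control replicate 2, while the difference stayed between 1.38 and 1.68. With the replicate number as a block it was 0.0539, so that fit called 0 of the 10 cathepsins. Over these and the other alternatives the adjusted p ran from 0.00200 to 0.378. In whole retina, more cells of a type and more RNA per cell cannot be told apart, here or for any gene below.

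Of the other cysteine endopeptidases, Ctsl lay slightly above 0 and Ctsk and Ctsf slightly below it, while Ctsb is given with the exopeptidases. Ctsl, an endopeptidase of lysosomes in most tissues, read 8.50 and 8.29 in control and 8.60 and 8.47 in the knockout, so the groups overlapped, with a difference of 0.14 (95% interval −0.15 to 0.43). Ctsk, the collagenase of osteoclasts, read 6.32 and 6.05 in control and 5.92 and 6.04 in the knockout. Its knockout arrays lay below its control arrays, but the replicate 2 pools stood only −0.01 apart against −0.40 in replicate 1, and the fitted difference was −0.21 (95% interval −0.51 to 0.10). Ctsf read 7.18 and 7.28 in control and 7.03 and 7.11 in the knockout, a difference of −0.16 (95% interval −0.41 to 0.09). Ctsk and Ctsf were the members below 0. The chromosomal neighbours of Ctss were measured too: against 1.53 for Ctss stood −0.21 for Ctsk and 0.00 (95% interval −0.28 to 0.28) for Hormad1, a gene of meiotic chromosome pairing.

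**Figure D1:**
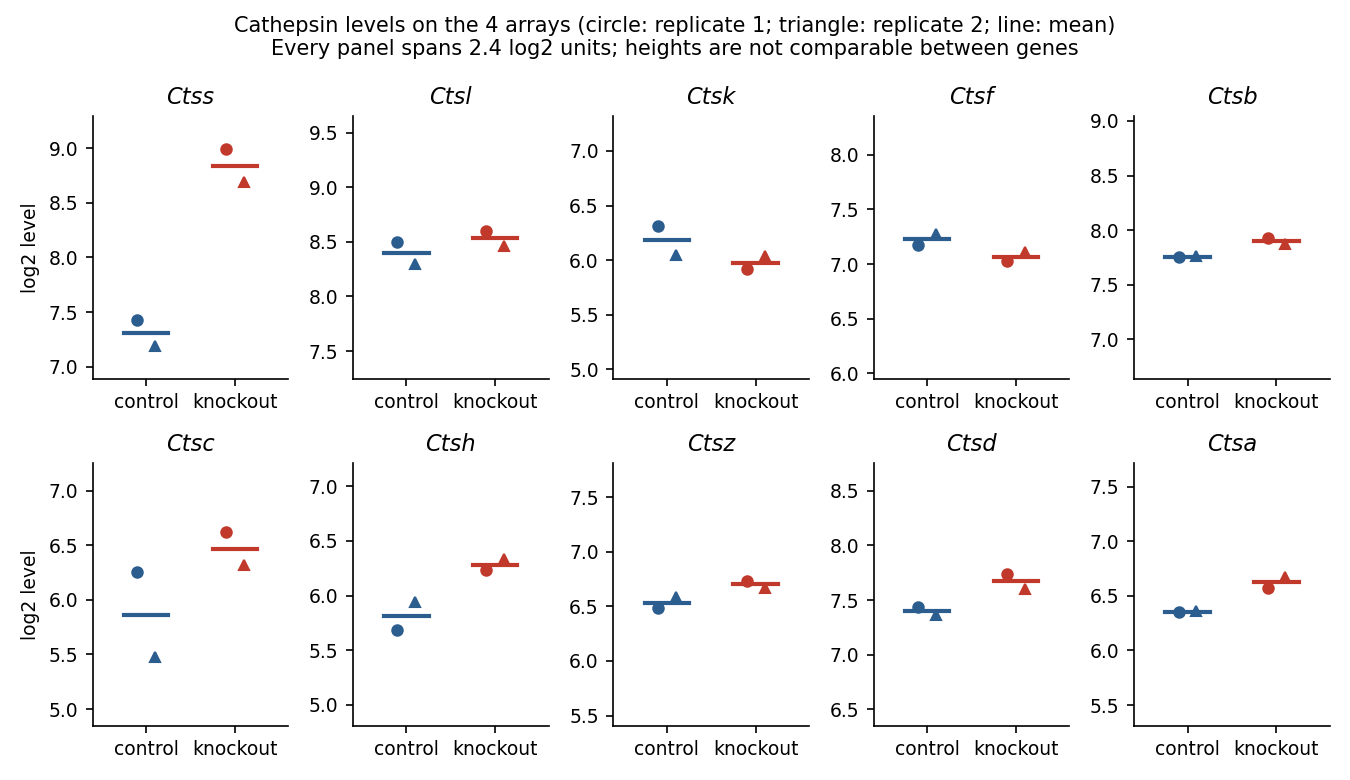
Log2 level of each listed cathepsin (y axis) on the control (blue) and knockout (red) arrays, with circles for replicate 1, triangles for replicate 2 and lines for group means. Each panel spans the same number of log2 units: the Ctss groups stand 1.53 apart, while the groups of the other genes differ by −0.21 to 0.60 and the control points of Ctsc lie far apart.

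The cysteine exopeptidases, taken here with Ctsb, lay above 0, with wider spread in Ctsc. Ctsc, the dipeptidyl peptidase that activates granule serine proteases of leukocytes, read 6.25 and 5.48 in control and 6.62 and 6.32 in the knockout. Its groups did not overlap, but control replicate 2 stood 0.77 below control replicate 1, the widest gap between replicates in any of the 10 genes. The difference of 0.60 (95% interval −0.01 to 1.22) was 0.37 in replicate 1 and 0.84 in replicate 2. Leaving out control replicate 1 raised it to 0.99, and leaving out control replicate 2 left 0.22. Ctsh, an aminopeptidase, read 5.69 and 5.94 in control and 6.23 and 6.33 in the knockout, a difference of 0.47 (95% interval 0.17 to 0.77). Its pools were clearly separated, and the difference was 0.55 in replicate 1 and 0.39 in replicate 2. Ctsb, which acts as an endopeptidase and as a dipeptidyl carboxypeptidase, read 7.76 on each control array and 7.93 and 7.87 in the knockout, a difference of 0.14 (95% interval −0.09 to 0.38). Ctsz, a carboxypeptidase, read 6.48 and 6.58 in control and 6.73 and 6.67 in the knockout, a difference of 0.17 (95% interval −0.08 to 0.42). For these last 2 genes the groups did not overlap, but the distance between them was small. The endopeptidase gene Ctsl differed by about as much as Ctsb, so these values do not set the 2 classes apart.

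The members of the other catalytic classes lay slightly above 0 and did not pass. Ctsd, the main aspartic protease of lysosomes, read 7.44 and 7.36 in control and 7.74 and 7.60 in the knockout, a difference of 0.27 (95% interval 0.01 to 0.52). Ctsa, the serine carboxypeptidase that shields lysosomal β-galactosidase and neuraminidase, read 6.35 and 6.36 in control and 6.57 and 6.67 in the knockout, also a difference of 0.27 (95% interval 0.03 to 0.51). In both genes the knockout arrays lay above the control arrays.

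Counted together, 1 of the 10 genes, Ctss, was called higher at an adjusted p under 0.05, 0 were called lower and 9 were not called. Over all 19421 genes 39 were called, 0.201%, of which 0.139% were higher and 0.0618% lower. Ctsa, Ctsd and Ctsh had an unadjusted p under 0.05 in the limma fit, 3 of the other 9, against 7.07% of all genes, and the smallest adjusted p among the 9 was 0.464, that of Ctsh. In 7 of the 10 genes both knockout arrays lay above both controls, as in 17.0% of all genes, and in 2 they lay below, as in 18.4%. The groups thus did not overlap in 9 of the 10, against 35.4% of all genes. The median difference of the 10 was 0.22, against −0.0026 over all genes, and 8 lay above 0, against 49.0% of all genes. The members were chosen with this comparison known, so nothing further is read from these shares.

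The distance between Ctss and the rest was similar in the separate replicate pairs. The median difference of the other 9 cathepsins was 0.17, so Ctss exceeded it by 1.36 on the log2 scale. The excess was 1.34 in replicate 1 and 1.33 in replicate 2, and 7 of the 9 lay above 0 in each. The highest of the 9 was Ctsh in replicate 1, at 0.55, and Ctsc in replicate 2, at 0.84. The 95% interval of Ctss lay above those of 8 of the other genes and overlapped that of Ctsc, whose upper end was 1.22. By size of difference, each of the 9 from Ctsc down to Ctsk had an interval that overlapped that of the next gene, so neighbours in that order are not resolved. The interval of Ctsh lay above those of Ctsf and Ctsk. On the linear scale the signal of the 10 probe sets summed to 1922 and 1762 in the knockout and 1446 and 1347 in control, and without Ctss to 1412 and 1350 against 1274 and 1201.

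**Figure D2:**
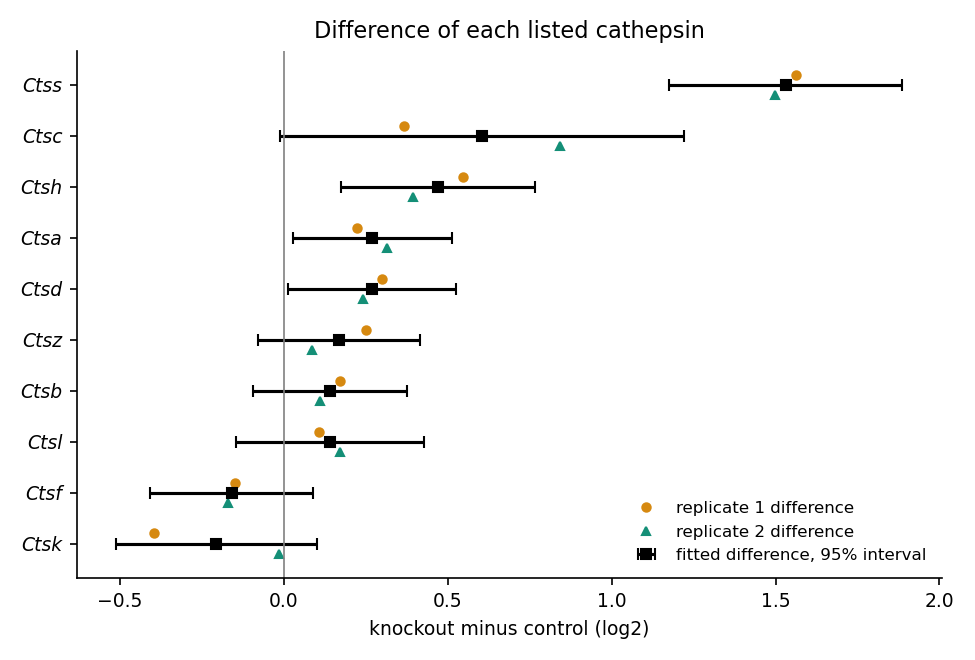
Knockout minus control on the log2 scale (x axis) for each listed cathepsin, with squares for the fitted difference, bars for its 95% interval, and circles and triangles for the differences within replicates 1 and 2. Ctss stands at 1.53 with its replicates at 1.56 and 1.50, and the interval of Ctsc, the next gene, runs from −0.01 to 1.22.

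The remaining cathepsin genes gave no call. Of 13 listed, 11 were measured, and their differences ran from −0.03 to 0.19 with a median of 0.05. None of the 11 had an unadjusted p under 0.05 in the limma fit either. Most of their probe sets were dim, with a median signal percentile of 12.3, where signal and background were not told apart on these arrays. The brighter members were Ctso, a cysteine protease, at 0.12 (SE 0.13, limma adjusted p = 0.929), and Ctse, an aspartic protease, at 0.09 (SE 0.10, adjusted p = 0.928). The serine protease gene Ctsg of neutrophil granules, whose precursor cathepsin C activates, was named after its value was seen, at 0.19 (SE 0.10, adjusted p = 0.780).

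The inhibitors gave no call. Of 11 measured cystatin genes 0 passed the limma test in either direction, 1 had an unadjusted p under 0.05 (7.07% of all genes), and the median was 0.07. Most of these probe sets were dim, with a median signal percentile of 10.7, where signal and background were not told apart. Cst3, which encodes the secreted inhibitor cystatin C, read 11.04 and 11.12 in control and 11.24 and 11.27 in the knockout, a difference of 0.17 (SE 0.10, adjusted p = 0.815). Cstb, the cytosolic inhibitor cystatin B, had 0.10 (SE 0.10, adjusted p = 0.914). Cst7, the cystatin of myeloid cells that inhibits cathepsin C, was named after its value was seen, at 0.19 (SE 0.15, adjusted p = 0.892). The lowest value, −0.47 (SE 0.13, adjusted p = 0.504), belonged to Stfa2, also named after its value was seen, a dim probe set that read 3.46 and 3.62 in control and 3.21 and 2.94 in the knockout.

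The rest of the lysosomal machinery likewise held no called gene. Over all genes 0.201% were called, 7.07% had an unadjusted p under 0.05 and 49.0% lay above 0. Among 30 measured hydrolases and cofactors 0 were called and 4 had an unadjusted p under 0.05 in the limma fit, with 19 above 0 and a median of 0.07. Man2b1, the lysosomal α-mannosidase, had 0.45 (SE 0.12, adjusted p = 0.482), and Fuca1, a fucosidase, had 0.29 (SE 0.10, adjusted p = 0.622). Among 26 genes of the lysosomal membrane and proton pump 0 were called and 1 had an unadjusted p under 0.05, and the median was 0.03. That gene was Cd63, a tetraspanin of late endosomes, which read 10.78 and 10.54 in control and 11.16 and 11.13 in the knockout, a difference of 0.49 (SE 0.12, adjusted p = 0.399). Atp6v1f, a proton pump subunit, had 0.25 (SE 0.11, adjusted p = 0.722). The 13 measured genes that sort enzymes to lysosomes ran from −0.13 to 0.13, with 0 calls and none at an unadjusted p under 0.05. Their smallest p values were those of the adaptor Gga3, at 0.13 (SE 0.12, adjusted p = 0.903), and the retromer subunit Vps35, at −0.13 (SE 0.14, adjusted p = 0.927).

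The partners of cathepsin S in antigen presentation did not pass. Of 8 measured genes of the invariant chain and class II pathway, 0 were called by limma and 1 had an unadjusted p under 0.05 (7.07% of all genes). Above 0 lay 3 (49.0% of all genes) and below it 5, with a median of −0.04. Their median signal percentile was 31.1, with Cd74 at 18.9 and H2-Aa at 10.8. Signal and background were not told apart at such levels, so these values say little about a change. Cd74, the invariant chain that cathepsin S cleaves, was named after its value was seen and read 4.88 and 4.74 in control and 4.77 and 4.81 in the knockout, with overlapping groups and a difference of −0.03 (SE 0.10, adjusted p = 0.984). H2-Ob, a chain of the regulator of peptide loading, had −0.37 (SE 0.14, adjusted p = 0.649), and H2-Aa, a class II α chain, 0.17 (SE 0.10, adjusted p = 0.831). Secreted cathepsin S is known to release the soluble form of Cx3cl1, fractalkine, which binds the microglial receptor Cx3cr1. Cx3cl1 had 0.07 (SE 0.10, adjusted p = 0.950) and Cx3cr1 0.50 (SE 0.13, adjusted p = 0.469), with both knockout arrays above both controls in each, as in 17.0% of all genes. Neither was called by limma, and 1 of the 2, Cx3cr1, had an unadjusted p under 0.05.

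Transcription factors of lysosomal and myeloid genes gave 0 calls among 11 measured and a median of 0.06. In the limma fit 2 had an unadjusted p under 0.05, against 7.07% of all genes. These 2 were Runx1, at 0.33 (SE 0.11, adjusted p = 0.625), and Cebpb, at 0.45 (SE 0.16, adjusted p = 0.641). The factors whose elements are marked in the promoter windows were named after their values were seen. Spi1, which encodes PU.1, had 0.13 (SE 0.14), Irf8 −0.05 (SE 0.15), Irf1 −0.09 (SE 0.11), Tfeb −0.06 (SE 0.11) and Tfe3 −0.13 (SE 0.12), and the groups of these 5 genes overlapped. The median signal percentile of the 11 was 33.2, with Spi1 at 21.4, Tfeb at 21.2, Irf1 at 23.0 and Runx1 at 19.7. Signal and background were not told apart at such levels, so these values say little about a change. Of the other listed relatives of TFEB, Mitf had 0.13 (SE 0.11), with both knockout arrays above both controls, as in 17.0% of all genes. Tfec, a dim probe set, had −0.23 (SE 0.10), with both knockout arrays below both controls, as in 18.4%.

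Most markers of microglia, the cells known to make cathepsin S in the retina, lay on the same side of 0 as Ctss. Of 18 measured, 1 was called higher (0.139% of all genes), 0 lower and 17 not, with 14 above 0 (49.0% of all genes), 4 below and a median of 0.28. An unadjusted p under 0.05 was found in 10 of the 18, in either direction, against 7.07% of all genes. Tyrobp, a signalling adaptor of myeloid cells, read 6.93 and 6.97 in control and 7.98 and 8.16 in the knockout and rose by 1.12 (SE 0.11, limma adjusted p = 0.0347). Its adjusted p was 0.135 without knockout replicate 1, 0.181 without knockout replicate 2, 0.416 without control replicate 1 and 0.378 without control replicate 2, and from 0.00214 to 0.416 over all alternatives. Aif1, which encodes Iba1, read 4.83 and 5.11 in control and 5.87 and 5.99 in the knockout, a difference of 0.96 (SE 0.13, adjusted p = 0.0912). The linear signal of all 18 summed to 1290 and 1309 in the knockout and 936 and 989 in control, a ratio of 1.35 between the groups, against 2.89 for Ctss. These ratios are not on a like footing. The median signal percentile of the 18 was 40.5, against 88.7 for Ctss, and the share of background in the sums is not known. None of the 18 was listed at 0, and log2 values carry no true zero. Cd68, a lysosomal membrane protein of macrophages, had 0.45 (SE 0.13, adjusted p = 0.530), the receptor gene Csf1r 0.34 (SE 0.10, adjusted p = 0.562), the resident marker Tmem119 −0.40 (SE 0.10, adjusted p = 0.403) and Itgam −0.04 (SE 0.10, adjusted p = 0.978). These 4 were named after their values were seen. The part of microglial number in the Ctss result was not tested.

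The markers of other cell types followed no single direction. For the counts that follow, the shares over all genes were 0.139% called higher and 0.0618% called lower. An unadjusted p under 0.05 was found in 7.07% of all genes, and 49.0% lay above 0. Of 10 measured markers of leukocytes from blood, 0 were called by limma and 1 had an unadjusted p under 0.05, S100a8, at 0.52 (SE 0.19, adjusted p = 0.655), followed by Plac8, at 0.20 (SE 0.10, adjusted p = 0.765). Their probe sets were dim, with a median signal percentile below that of the other cathepsins (12.3), where signal and background were not told apart. Their median difference was −0.08 and their linear sums were 312 and 329 in the knockout and 326 and 338 in control. Of 8 markers of the retinal pigment epithelium, which can come along when a retina is dissected, 0 were called, 1 had an unadjusted p under 0.05 and 7 lay below 0. Their sums were 1473 and 1529 in the knockout and 1884 and 1516 in control, highest in control replicate 1, where Rpe65, the isomerase of that epithelium, read 7.31 against 6.60 in control replicate 2. Rpe65 had a difference of −0.41 (SE 0.24, adjusted p = 0.822) and Dct −0.32 (SE 0.13, adjusted p = 0.700). The part of this epithelium in the cathepsin values was not tested. Müller glia markers had 0 calls among 9 and a median of 0.10, with 7 above 0 and 2 below. An unadjusted p under 0.05 was found in 3, in either direction. These were Vim at 0.56 (SE 0.10, limma adjusted p = 0.219), Gfap at 0.70 (SE 0.15, adjusted p = 0.317) and Glul at −0.37 (SE 0.11, adjusted p = 0.518). Glul was named after its value was seen. Vascular markers had 0 calls among 7, none at an unadjusted p under 0.05 and a median of 0.04, with Pecam1 at −0.30 and Rgs5 at 0.27 (adjusted p = 0.750 each). Of 8 rod markers 1 was called lower (Gnat1) and 6 had an unadjusted p under 0.05, with Pde6b at −0.82 (adjusted p = 0.0644). The Gnat1 call was lost without control replicate 1 (adjusted p = 0.216) and without control replicate 2 (0.195), with a range of 4.21e-05 to 0.216 over the alternatives. Of 8 cone markers 2 were called higher, Gnb3 by 1.59 and Gnat2 by 1.10 (adjusted p = 0.0366 and 0.0402). In 4 the unadjusted p was under 0.05, and these did not share a direction. They included Pde6c at 0.87 (SE 0.10, limma adjusted p = 0.0616) and Opn1sw at −0.52 (SE 0.11, adjusted p = 0.281). Pde6c and Opn1sw were named after their values were seen. Across the cone list 4 differences were positive and 4 negative, and the middle value was 0.07. Both cone calls were lost with the replicate block (adjusted p = 0.0623 and 0.132) and without any 1 of the 4 arrays. Leaving out an array gave an adjusted p of 0.134 to 0.312 for Gnb3 and 0.145 to 0.420 for Gnat2, and the lowest over the alternatives were 0.00223 and 0.00200.

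**Figure D3:**
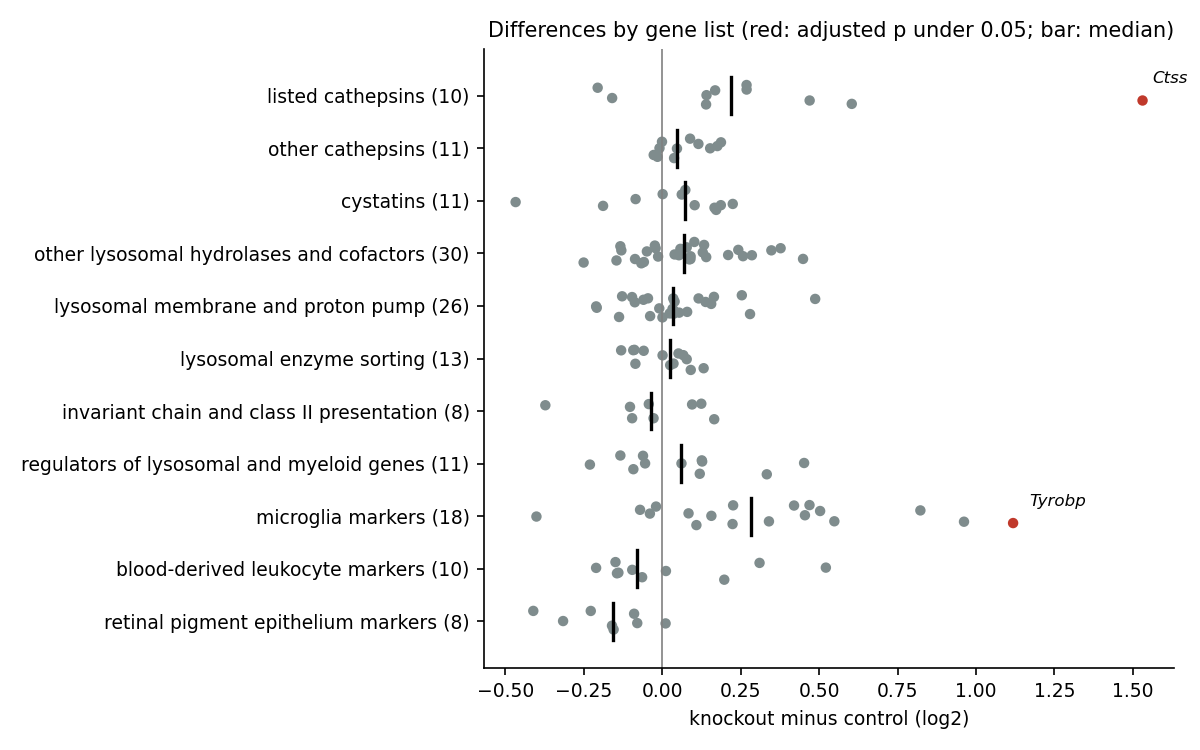
Knockout minus control on the log2 scale (x axis) for every measured gene of 11 lists (rows, with the number measured), with red points for genes called at an adjusted p under 0.05 and black bars for list medians. Ctss at 1.53 and Tyrobp at 1.12 are the called genes, and the medians of the lysosomal lists lie between 0.03 and 0.07.

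The genes whose pattern over the 4 arrays was nearest to that of Ctss were sought among the other 19420. Each gene's log2 values were centred on its own mean, and likeness was the Euclidean distance over the 4 arrays, on which scale the Ctss profile itself has a length of 1.56. The nearest were Prtg at 0.12, Gnb3, the β subunit of cone transducin, at 0.17, B2m, which encodes β2-microglobulin, at 0.22, Fgf2, a growth factor, at 0.29, and A2m, a protease inhibitor of reactive glia, at 0.30. Their differences were 1.54, 1.59, 1.48, 1.64 and 1.44. In Ctss, Prtg, Gnb3, B2m and Fgf2 replicate 2 was the lower array in each genotype, and in A2m that held in control but not in the knockout. Of the microglia markers ranked here, Tyrobp stood 30th at 0.58 and Aif1 53rd at 0.74, but C1qa stood 130th, Cd68 327th and Csf1r 390th. C1qa was named after its value was seen. Among the other cathepsins Ctsc was nearest, ranked 119th, ahead of C1qa, Cd68 and Csf1r. Ctsh ranked 263rd at 1.15, ahead of Cd68 and Csf1r. Ctsd ranked 669th at 1.27 and Ctsa 889th at 1.31, and Ctsk was the farthest of the 9 at 1.76. The measure rests on 4 arrays and follows the size of the difference above all.

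**Figure D4:**
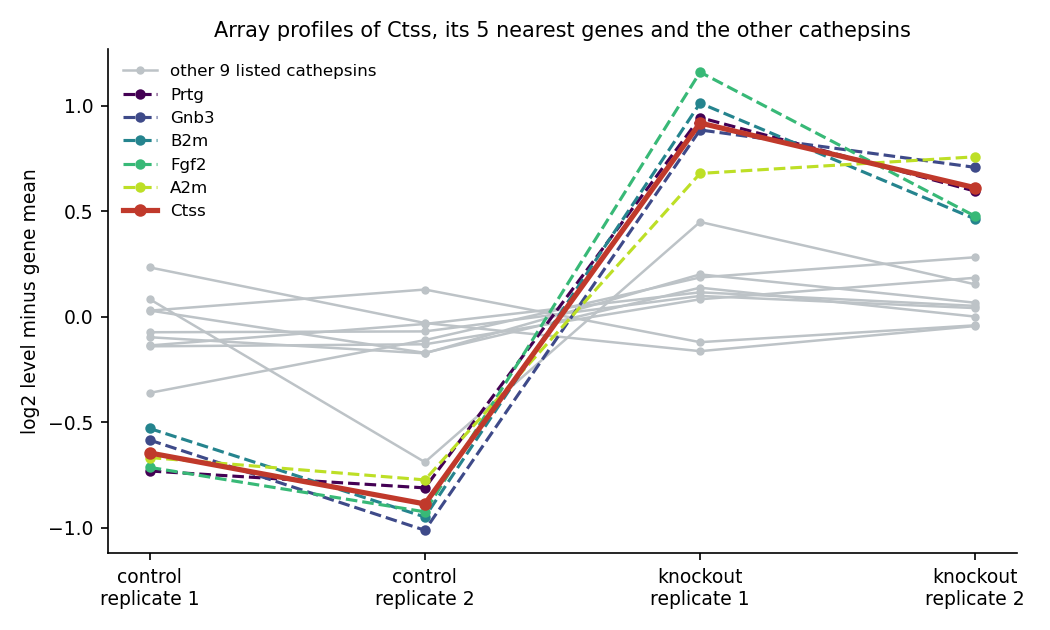
Log2 level minus the gene's own mean (y axis) on each of the 4 arrays (x axis) for Ctss (thick red line), the 5 genes nearest to it (dashed lines) and the other 9 listed cathepsins (grey lines). The dashed lines run within a distance of 0.12 to 0.30 of Ctss, while the grey lines span less, the lowest point among them being Ctsc in control replicate 2.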

How the data were processed

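Total RNA of whole retinas was measured on 4 microarrays. The table deposited by the authors holds log2 values for 21897 probe sets. The tools in the submitters' processing notes are limma and affy, without versions or roles, and background correction and normalization remain unstated in the sources used here. The log2 scale was read from the values (1.34 to 12.75, array medians 5.99 to 6.04), and the deposited scale was kept. Of the probe sets, 20877 had a single gene symbol in the platform annotation. Those with several symbols (175) or no symbol (845) were left out. For the 778 genes with several probe sets, that with the highest mean stood for the gene, which left 19421.

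The genotypes were compared by limma 3.58.1 (R 4.3.3) in a single fit of these genes, with a genotype term alone, two-sided moderated tests (lmFit, eBayes) and Benjamini-Hochberg adjustment, and with no filter on low signal. SE is the moderated standard error. The steps were run on simulated data with known differences, independent noise and no shift between replicate numbers. The check was that mean estimates came close to the known differences, and it does not bear on the calls here. The 10 alternatives were the mean of probe sets, a signal filter, quantile and 75th percentile scaling, the replicate block, a variance trend and each array left out in turn. An exact permutation test cannot go below 1 in 3 with these arrays. The members and the 15 gene lists were chosen with earlier results of these data known. Genes were named by rule: all members, Nrl, the 2 brightest of the other cathepsins and of the cystatins, the called genes and 2 smallest p values of the remaining lists, and the 5 nearest profiles. Xist, Hormad1 and those said to be named after their values were seen fall outside it. The array number limits the precision of every value.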

Additional observations from a re-analysis of the deposited data

How the results depend on the processing

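All 10 cathepsins kept their direction under all 10 alternatives, Ctss between 1.38 and 1.68. The mean of probe sets, the signal filter, the replicate block and the variance trend cannot move the difference of a gene with 1 probe set. Only the scalings and the fits that left out an array therefore bear on direction. With the replicate number as a block, Ctss kept its difference of 1.53 but missed the threshold (adjusted p = 0.0539, with 0.00200 to 0.378 over the alternatives), so 0 cathepsins and 0 microglia markers were called and 8 genes in all, against 39. Deviations from the group means correlated at 0.239 between same-numbered arrays, and no label says that a number marks a shared source. Leaving out single arrays gave 0 called cathepsins, 0 called microglia markers and 0 to 11 called genes in all. It gave a Ctss excess over the other 9 of 1.19 to 1.48, which quantile normalization put at 1.38. Without genes under the 50th percentile of signal 89 genes were called and with a variance trend 128. Quantile normalization and the trend each called 2 microglia markers. The causes were not tested. With limma 0 members of the other cathepsin, cystatin, lysosomal, class II, transcription factor and fractalkine lists were called under the alternatives that tested them, and their counts at an unadjusted p under 0.05 stand beside each list. The signal filter left no class II gene to test, 1 gene each of the other cathepsins and the transcription factors and 2 cystatins, so it says little about these lists. With 2 arrays per group, small differences could not be resolved.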
